A study of Homo sapiens with 6 samples.

Results

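Integrins are adhesion receptors built from 1 alpha and 1 beta chain. The genes described here are 10 integrin chains outside the platelet integrin ITGA2B and ITGB3. They were taken by name: the alpha chains ITGA2, ITGA4, ITGA5, ITGA6, ITGAV and ITGAE, and the beta chains ITGB1, ITGB2, ITGB5 and ITGB7. All 10 had a row among the 60131 genes of the deposited RPKM table and among the 28395 genes of the deposited normalized count table. The other 16 integrin chains served as their background within the family.

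RNA was sequenced from 3 K562 libraries labelled R320* and 3 K562 libraries labelled WT. K562 is a human chronic myeloid leukaemia line in blast crisis with erythroid and megakaryocytic features, and both genotypes share that background and the same culture medium, RPMI-1640 with serum and antibiotics. R320* denotes a stop codon in place of an arginine of RUNX1, a transcription factor of blood development, and the study concerns changes in the C-terminal part of that protein. How the change was introduced, whether it is on every allele, whether the R320* cells are 1 clone, and whether libraries of a genotype are separate cultures is not given in the sources used here. The p-values therefore measure only the spread between these libraries, which may be technical.

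The alpha and beta chains join in the endoplasmic reticulum, and the pair decides which ligand is bound. ITGB1 pairs with many alpha chains to make receptors for fibronectin, collagen and laminin. ITGAV pairs with several beta chains, ITGB5 among them, and binds ligands with an Arg-Gly-Asp motif. ITGB2 and ITGB7 are beta chains of leukocytes. Erythroid cells are known to hold fibronectin through ITGA4 or ITGA5 with ITGB1 and to lose that hold as they mature, and talins and kindlins bind the beta tails to switch the receptors on.

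RUNX1 itself had 5209, 5026 and 5261 normalized counts in R320* libraries, against 2969, 2922 and 2908 in WT libraries, and the total of a gene does not show whether its stop codon is present. All 10 K562 markers had at least 10 normalized counts in every library. Their summed level lay between 147826 and 172564 in R320* libraries, against 124882 to 129526 in WT libraries. GATA1 and HBE1 went against that sum and were lower in every R320* library than in any WT library. HBZ overlapped, and the rest of the list was higher in R320*. Among markers of other cells, the T cell list summed to 639 to 736 in R320*, against 925 to 999 in WT, with CD2 and CD8A at 0 in all libraries. CD3D held most of that sum. CD3D and CD3E were lower in R320*, and CD3G and CD5 overlapped. B cell markers summed to 101 to 132 in R320* and 87.9 to 111 in WT, with PAX5 at 0. Monocyte and granulocyte markers summed to 13.7 to 17.9 in R320* and 54.4 to 69.8 in WT, with ELANE and FCN1 at 0. LYZ, with 0.980, 0 and 0 in R320* and 39.7, 54.8 and 49.5 in WT, held most of the WT sum. CD14, MPO and CSF1R overlapped. Endothelial markers summed to 7.62 to 7.94 in R320* and 25.1 to 32.4 in WT, with CDH5 and KDR at 0. ESAM held most of the WT sum, and VWF and TEK overlapped. Fibroblast markers summed to 2711 to 2930 in R320*, against 3434 to 3520 in WT, and COL1A2 held most of that sum. Epithelial markers summed to 17844 to 18372 in R320* and 16052 to 16239 in WT, with CDH1 at 6.67 or below in every library. Within that list EPCAM and KRT19 were higher in R320*, and KRT8 and KRT18 were lower. The part of these levels in the integrin values was not tested.

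The sequences upstream of 3 member genes are shown because these genes mark the ends of the range: ITGB5 had the largest decrease, ITGA2 the largest increase, and ITGB1 was the most abundant and was not called. They are the bases before the gene's start in RefSeq (GRCh38.p14), read 5′ to 3′ on the gene's strand and ended before the first annotated exon base. Capitals mark the letters TGTGGT or TGCGGT, a core of the motif that RUNX proteins bind, searched on both strands.
ITGB5 main start, chr3:124901419-124901668, minus strand: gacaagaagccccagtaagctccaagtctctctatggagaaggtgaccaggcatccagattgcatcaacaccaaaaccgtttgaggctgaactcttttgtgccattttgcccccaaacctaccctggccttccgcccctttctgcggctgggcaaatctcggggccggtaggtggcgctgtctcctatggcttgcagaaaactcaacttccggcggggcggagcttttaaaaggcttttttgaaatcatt
ITGB5 alternative start, chr3:124887828-124887934, minus strand: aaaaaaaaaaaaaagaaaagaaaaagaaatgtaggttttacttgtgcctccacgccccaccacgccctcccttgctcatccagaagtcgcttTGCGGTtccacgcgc
ITGA2, chr5:52989102-52989325, plus strand: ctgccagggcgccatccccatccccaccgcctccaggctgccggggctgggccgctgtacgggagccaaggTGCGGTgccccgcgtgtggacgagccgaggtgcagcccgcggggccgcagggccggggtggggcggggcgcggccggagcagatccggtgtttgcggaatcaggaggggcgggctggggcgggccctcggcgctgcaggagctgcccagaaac
ITGB1, chr10:32958233-32958480, minus strand: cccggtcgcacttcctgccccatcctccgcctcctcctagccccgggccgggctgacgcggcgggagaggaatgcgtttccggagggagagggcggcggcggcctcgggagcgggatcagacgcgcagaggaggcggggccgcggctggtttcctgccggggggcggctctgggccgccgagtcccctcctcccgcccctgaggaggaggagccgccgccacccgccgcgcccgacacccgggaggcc

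The window from 250 bases before to 50 bases after the start was found for 9 of the 10 members, in 14 windows. The table used here did not match ITGB2. The RUNX letters were found for 3 of the 9 members. ITGA2 had them at position -179, and ITGA6 had them once, at chr2:172427349, which is position 14 of one start and -237 of another. ITGB5 had them at -158 of its alternative start and nowhere in the window of its main start. Counted by window, 4 of the 14 member windows held these letters, the ITGA6 place counting in both of its windows, against 19.6% of all 35116 windows and 18.7% of the windows of genes tested in normalized counts. Letters of the GATA motif, AGATAA or TGATAA on either strand, were found for ITGA6 and ITGAV, in 2 of the 14 member windows, against 16.3% of all windows and 9.94% of the windows of genes tested. Of the sequences shown, the ITGB1 window held 78.4% G and C, the ITGA2 window 76.4%, and the main ITGB5 window 52.8%, against a median of 58% over all windows.

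The alpha chains moved in both directions. ITGA5 fell 2.04-fold and ITGAE 1.26-fold, ITGAV rose 1.24-fold, and ITGA2 rose 5.60-fold at a very low level. In normalized counts, 8 of the 10 members passed the filter of at least 10 in at least 3 libraries. Of these, 2 were called higher and 4 lower in R320*, and 2 were not called, by limma with a Benjamini-Hochberg adjusted p below 0.05 over all genes tested. That threshold called 53.7% of the 14299 genes tested, 26.4% as higher and 27.4% as lower, so the share of members called is to be read against a background in which most genes are called. The libraries of the genotypes did not overlap for 6 of the 8 members tested, 2 with R320* above WT and 4 with R320* below WT. Over all genes tested this held for 59.8%, 29.6% with R320* above and 30.2% with R320* below. ITGA2, 1 of the 2 members called higher, passed the filter only through R320*. A difference was thus built into its being tested, and its lack of overlap was fixed by the filter. The median log2 fold change was -0.15 over the 8 members tested and 0.01 over all genes tested. In bulk RNA, fewer cells that express a gene and less RNA per cell cannot be told apart.

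**Figure D1:**
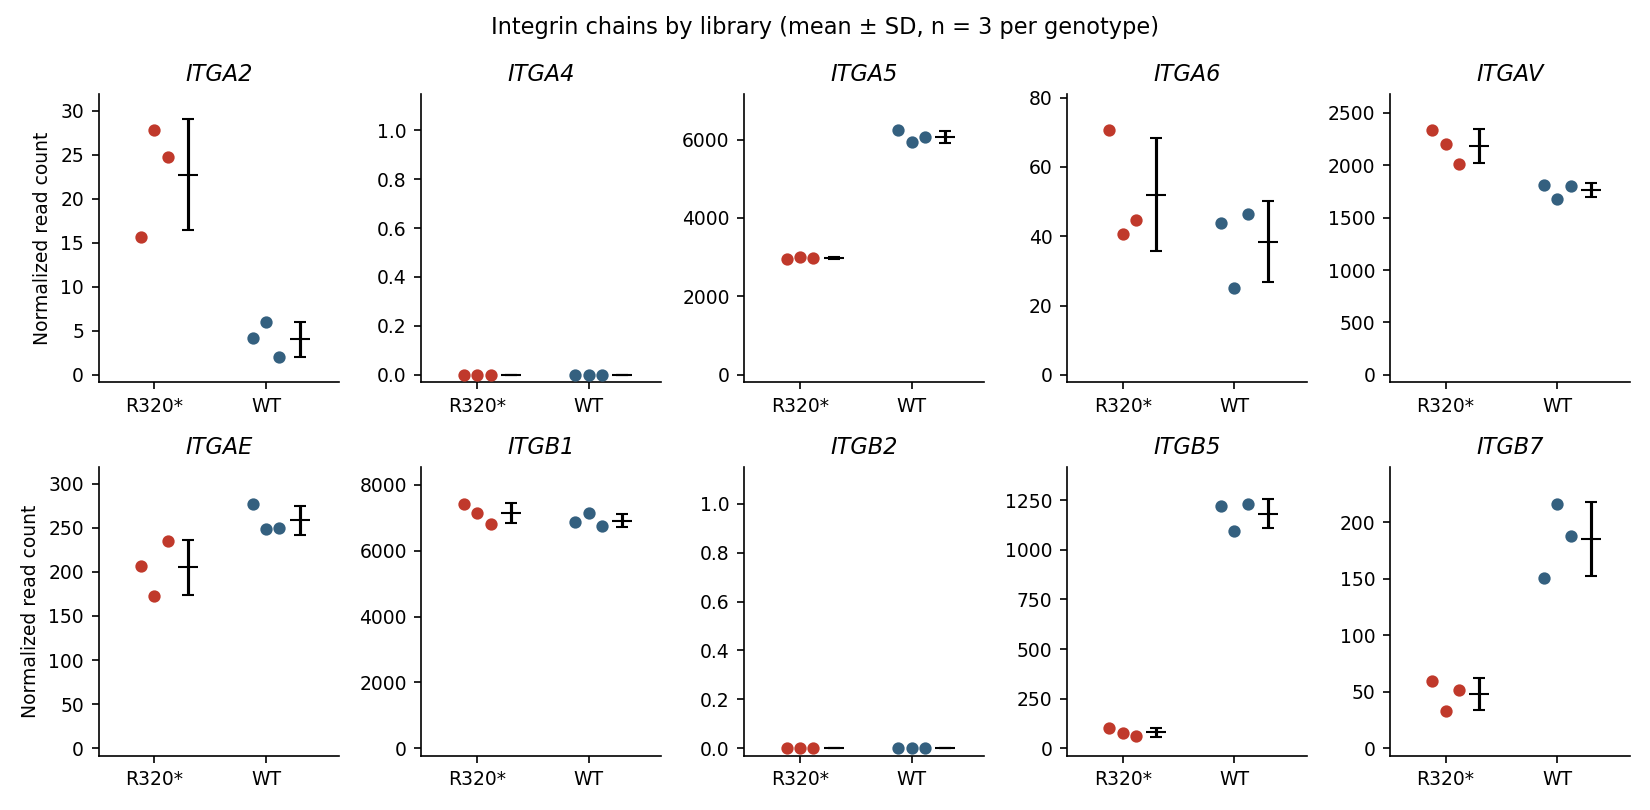
Normalized counts of the 10 chains in each library, R320* left and WT right in each panel, with points for libraries and bars for the mean and SD (n = 3 each). ITGB5, ITGA5 and ITGB7 lie lower in R320*, ITGA2 and ITGAV lie higher, and ITGA4 and ITGB2 are at 0 in every library.

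ITGA5 forms the main fibronectin receptor with ITGB1. Its level was 2954, 3004 and 2977 normalized counts in R320* libraries, against 6239, 5929 and 6058 in WT libraries. The 3 R320* libraries lay close together and far below every WT library. The means were 2978 ± 24.7 in R320* and 6076 ± 156 in WT (SD, n = 3 each), 2.04-fold lower in R320*. On the log2(normalized count + 1) scale ITGA5 fell by 1.03 (SE 0.04, limma adjusted p = 1.95e-12). The RPKM table gave 25.3, 25.3 and 23.5 RPKM in R320*, against 54.2, 48.7 and 52.1 RPKM in WT, and it was called lower there too, with a log2 change of -1.06 and a limma adjusted p of 5.24e-05.

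ITGAV is the alpha chain of the vitronectin receptors. It had 2335, 2205 and 2017 normalized counts in R320* libraries, against 1809.6, 1683 and 1799 in WT libraries, so the lowest R320* library stood above the highest WT library. The means were 2186 ± 159.9 in R320* and 1764 ± 70.3 in WT, 1.24-fold higher in R320*, with a log2 change of 0.31 (SE 0.06, limma adjusted p = 0.00029). In RPKM it had 14.8, 14.5 and 15.4 in R320* and 12.1, 10.1 and 11.5 in WT, with a log2 change of 0.40 and a limma adjusted p of 0.0109. Of the members tested in both tables, it alone was called higher, and it was so in both.

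ITGA2, the alpha chain of a collagen receptor with ITGB1, had 15.7, 27.8 and 24.8 normalized counts in R320* libraries and 4.18, 5.98 and 2.02 in WT libraries. The genotypes did not overlap, and the mean was 5.60-fold higher in R320*. Its log2 change was 2.27 (SE 0.54, limma adjusted p = 0.00192). ITGA2 passed the filter only through its R320* libraries, so a difference was built into its being tested, and leaving out any R320* library took it out of the test. In RPKM it stayed at 0.132 or below in every library, under the filter of 0.5, and was not tested there.

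ITGA6, the alpha chain of laminin receptors, had 70.6, 40.7 and 44.8 normalized counts in R320* libraries and 43.9, 24.9 and 46.5 in WT libraries. The ranges overlapped, and the log2 difference of 0.43 (SE 0.32) was not called, with a limma adjusted p of 0.272. Its RPKM was 0.106, 0.0853 and 0.155 in R320* libraries and 0.0752, 0.0604 and 0.0246 in WT libraries. These RPKM values did not overlap, but all lay under the filter of 0.5, and ITGA6 was not tested there. ITGA4, the partner of ITGB1 and ITGB7 in receptors for VCAM1, fibronectin and MADCAM1, had 0 in all 6 libraries in both tables. A count of 0 allowed up to 2.86 to 2.98 normalized counts in an R320* library and up to 2.99 to 3.14 in a WT library, taking 3 times the smallest value of a library as the limit. These limits cover counting error only and hold only for reads as the authors assigned them to genes, since ITGB2 and ITGB8 had 0 in this table and values above 0 in RPKM.

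ITGAE, also called CD103, pairs with ITGB7 and binds E-cadherin (CDH1). It had 207, 173 and 235 normalized counts in R320* libraries, against 277, 248 and 249.8 in WT libraries. The R320* values lay below the WT values by a narrow gap, and the mean was 1.26-fold lower in R320*. The log2 change of -0.34 (SE 0.14) had a limma adjusted p of 0.0496, just inside the threshold, and the call was lost in 9 of 15 alternatives. These took in leaving out R320* replicate 1 or 2 or any WT replicate, with adjusted p of 0.0689, 0.204, 0.148, 0.0674 and 0.0751 in that order. In RPKM its log2 difference was also -0.34 and was not called, with a limma adjusted p of 0.0575. The span of ITGAE holds HASPIN on the opposite strand, with 643 normalized counts in R320* and 620.2 in WT, and the use of strand in counting is not given, so reads of the pair may not have been told apart.

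Of the beta chains, ITGB5 and ITGB7 fell and ITGB1 was not called. ITGB5, which pairs with ITGAV as a vitronectin receptor, had 103, 77.4 and 60.03 normalized counts in R320* libraries, against 1218, 1096 and 1232 in WT libraries. Every R320* library was far below every WT library. The means were 80.1 ± 21.6 in R320* and 1182 ± 74.8 in WT, 14.7-fold lower in R320*, with a log2 change of -3.90 (SE 0.16, limma adjusted p = 3.74e-12). Its log2 change was the 103rd lowest of the 14299 genes tested, and 1.03% of all genes had a change at least as large in either direction. In RPKM it had 0.710, 0.779 and 0.731 in R320*, against 10.6, 9.24 and 9.72 in WT, and was called lower with a log2 change of -3.56 and a limma adjusted p of 1.03e-05.

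ITGB7, the partner of ITGA4 and ITGAE in lymphocyte homing, had 59.8, 32.7 and 51.5 normalized counts in R320* libraries, against 151, 216 and 188 in WT libraries. Every R320* library was below every WT library. The mean was 3.85-fold lower in R320*, with a log2 change of -1.95 (SE 0.24, limma adjusted p = 3.34e-06). In RPKM the values were 0.140, 0.613 and 0.437 in R320* and 0.961, 1.09 and 0.926 in WT. They did not overlap either, but the R320* values were spread widely, and the log2 difference of -1.27 was not called (limma adjusted p = 0.0794). Part of ITGB7 overlaps ZNF740 on the opposite strand over 3824 bases, and ZNF740 had 1125 normalized counts in R320* and 1542 in WT.

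ITGB1 had 7429.9, 7153 and 6828 normalized counts in R320* libraries and 6866, 7140.5 and 6752 in WT libraries. The ranges overlapped, and the log2 difference was 0.04 (SE 0.04, limma adjusted p = 0.374). In RPKM it had 89.8, 90.0 and 91.7 in R320* and 87.0, 87.4 and 89.1 in WT. These RPKM values did not overlap, yet the log2 difference of 0.04 was not called (limma adjusted p = 0.372). ITGB2, the beta chain of the leukocyte integrins, had 0 normalized counts in every library. The RPKM table listed it at 0.132, 0.129 and 0.113 in R320* and at 0 in WT. The tables therefore disagreed on ITGB2, and no fold change is given for it. With a lower RPKM filter of 0.1 it was tested, only through its R320* libraries, and called higher (limma adjusted p = 0.0439).

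In RPKM, 6 of the 10 members passed the filter of at least 0.5 in at least 3 libraries. Of these, 1 was called higher, 2 were called lower and 3 were not called, where 31.9% of the 17769 genes tested were called, 15.1% as higher and 16.8% as lower. The calls over all genes split into 2692 higher and 2983 lower, and into 3412 higher and 2403 lower when each library was scaled to the same total, which moved the median log2 change of all genes by 0.07. ITGAV remained called higher, and ITGA5 and ITGB5 remained called lower, under that scaling. The libraries of the genotypes overlapped for none of the 6 members tested, with R320* above WT for ITGAV and ITGB1 and below WT for ITGA5, ITGAE, ITGB5 and ITGB7. Over all genes tested, 47% did not overlap, 22.9% with R320* above and 24.1% with R320* below. The median log2 change was -0.70 over the 6 members tested and 0.01 over all genes tested.

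**Figure D2:**
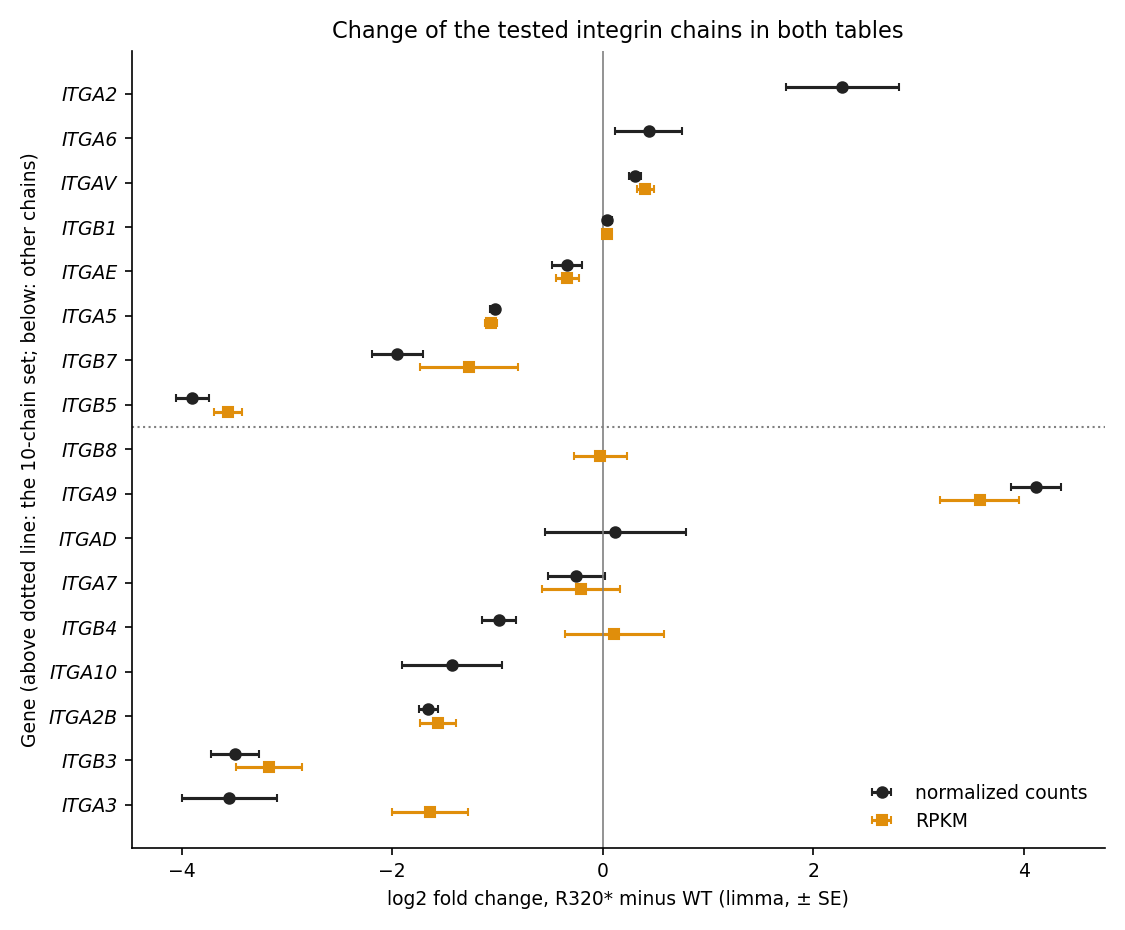
Log2 change, R320* minus WT, of each integrin chain tested, with its standard error from limma, in normalized counts and in RPKM. ITGB5 at -3.90 in normalized counts lies lowest among the 10 chains and ITGA2 at 2.27 highest.

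RPKM values, so named by the authors, are scaled for gene length, so levels of different chains are set side by side in them here. The tool that made them is not given, and the measures disagreed on the level of some chains, such as ITGAE and ITGB8. In R320* libraries the order of mean RPKM was ITGB1 at 90.5, ITGA5 at 24.7, ITGAV at 14.9, ITGAE at 13.1, ITGB5 at 0.740 and ITGB7 at 0.397. No neighbours in this order overlapped, though the gap between ITGAV, at 14.495 or above, and ITGAE, at 14.419 or below, was narrow. ITGB2, ITGA6 and ITGA2 followed at 0.125, 0.116 and 0.110 and overlapped each other, and ITGA4 was at 0. In WT libraries the order was ITGB1 at 87.8, ITGA5 at 51.7, ITGAE at 16.5, ITGAV at 11.3, ITGB5 at 9.85 and ITGB7 at 0.993, and the ranges of ITGAV and ITGB5 overlapped. In RPKM ITGAV thus stood above ITGAE in R320* and below it in WT. Normalized counts, which are not scaled for length, did not show this swap. There ITGAV averaged 2186 and ITGAE 205 in R320*, and ITGAV 1764 and ITGAE 258 in WT. The reason for the difference between the measures was not tested.

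The makeup of the alpha chains differed between genotypes. The 18 alpha chains summed to 62.4 ± 2.42 RPKM in R320* and 99.6 ± 5.06 RPKM in WT (SD, n = 3 each). ITGA5 took 39.7% ± 2.60 of that sum in R320* and 51.9% ± 1.37 in WT. ITGAV took 23.9% ± 0.769 in R320* and 11.3% ± 0.639 in WT, and ITGAE took 20.9% ± 1.89 in R320* and 16.6% ± 1.04 in WT. The alpha shares rest on RPKM alone, and ITGAE stood much lower beside ITGA5 in normalized counts. There ITGAE averaged 205 and ITGA5 2978 in R320*, and ITGAE 258 and ITGA5 6076 in WT. In RPKM ITGAE averaged 13.1 and ITGA5 24.7 in R320*, and ITGAE 16.5 and ITGA5 51.7 in WT. The reason for this disagreement was not tested, so the ITGAE shares hold for the RPKM values only. Among the 8 beta chains, which summed to 94.9 ± 0.434 RPKM in R320* and 104.5 ± 2.16 RPKM in WT, ITGB1 took 95.3% ± 0.772 in R320* and 84.1% ± 0.946 in WT. ITGB5 took 0.780% ± 0.0396 in R320* and 9.42% ± 0.650 in WT. These shares describe transcripts, not receptors on the cell surface.

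**Figure D3:**
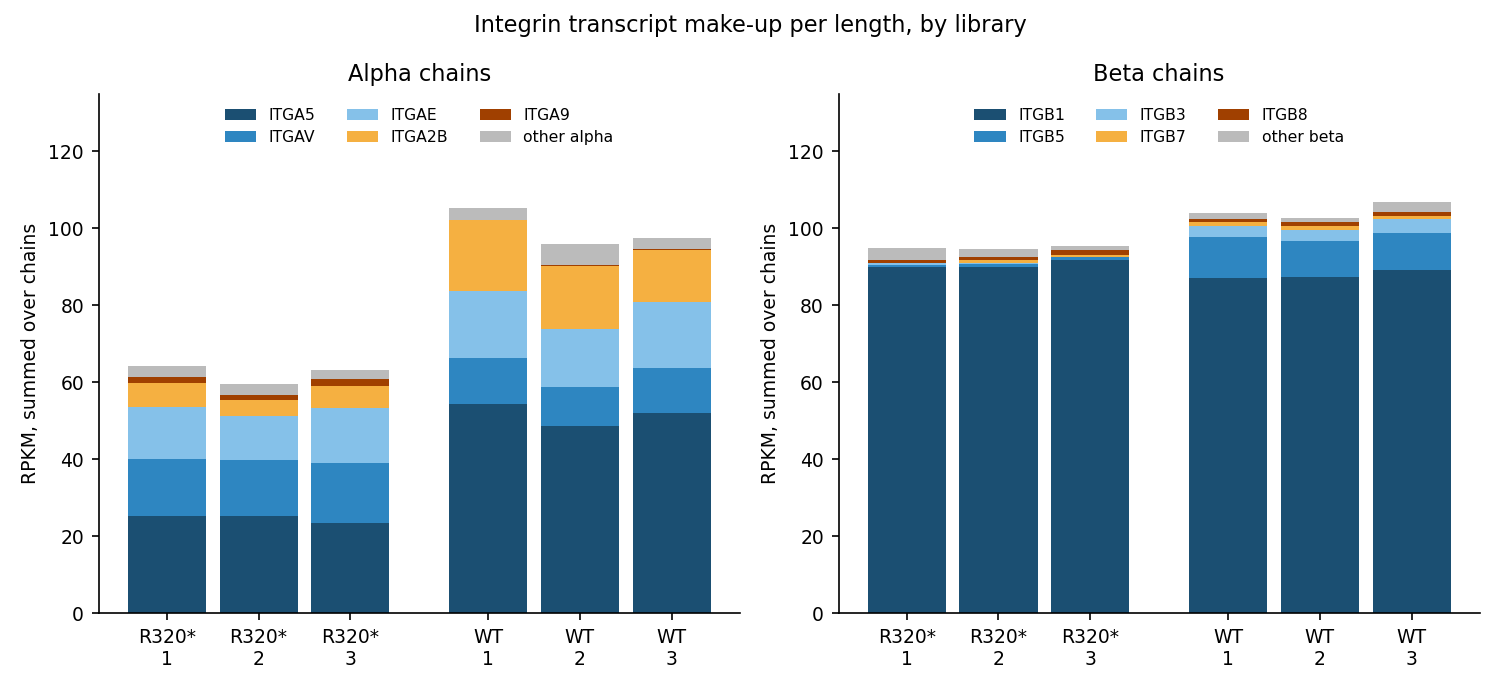
Stacked RPKM of alpha chains (left panel) and beta chains (right panel) in each library, R320* libraries left and WT libraries right, with the smaller chains summed in grey. The ITGA5 block averages 24.7 RPKM in R320* and 51.7 in WT, the ITGB5 block 0.740 in R320* and 9.85 in WT, and the ITGB1 block 90.5 in R320* and 87.8 in WT.

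The alpha partners of ITGB1 had a lower summed level, and ITGB1 itself was not called. The 12 alpha chains that pair with ITGB1 summed to 43.4 ± 0.460 RPKM in R320* and 66.6 ± 2.60 RPKM in WT. These partners did not fall as a set. ITGA5 alone, at 24.7 RPKM in R320* and 51.7 in WT, fell by more than the whole sum. ITGAV rose, as did ITGA9, with 1.55 RPKM in R320* and 0.0378 in WT, and the rest went in both directions. The ratio of ITGB1 to that sum was 2.06, 2.05 and 2.14 in R320* libraries and 1.26, 1.37 and 1.34 in WT libraries, without overlap. The log2 ratio was higher by 0.66 in R320*, with a two-sided exact permutation p of 0.1, the smallest that 3 against 3 libraries can give. Counted over the 5 partners among the members, ITGA2, ITGA4, ITGA5, ITGA6 and ITGAV, the difference was 0.70. For ITGAV, whose level was 14.9 ± 0.470 RPKM in R320* and 11.3 ± 1.01 RPKM in WT, the beta partners ITGB3, ITGB5, ITGB6 and ITGB8 summed to 2.02 ± 0.130 RPKM in R320* and 14.0 ± 0.743 RPKM in WT. ITGB1, which also pairs with ITGAV, is not in that sum. With ITGB1 the sum was 92.5 ± 1.20 RPKM in R320* and 101.8 ± 1.47 RPKM in WT. Both sums were chosen after their values were seen.

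ITGA5 and ITGB7 both lie on chromosome 12, in a stretch where most genes were lower. ITGA5 is at 54395261 to 54419460 and ITGB7 at 53191318 to 53207307, both on the minus strand (GENCODE, GRCh38). Of the 50 tested genes around ITGA5, 25 on each side, 39 were called lower and 2 higher, with a median log2 change of -0.71 beside -1.03 for ITGA5. Around ITGB7, 36 of 50 were called lower and 4 higher, with a median of -0.66 beside -1.95 for ITGB7. The 2 sets share 17 genes. Of the neighbours, 12 of 50 were lower than ITGA5, and 2 of 50 were lower than ITGB7. The part of this stretch in their change was not tested.

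The genes around ITGB5 and ITGA2 centred near 0. ITGB5, on chromosome 3 from 124761948 to 124901418 on the minus strand, had neighbours with a median log2 change of 0.10, and none of the 50 was as low as ITGB5 at -3.90. The lowest of them, CSTA, was at -3.74, with 1.91 ± 3.30 normalized counts in R320* and 25.3 ± 9.74 in WT. UMPS and ZNF148, the tested genes on either side of it, had log2 changes of 0.19 and -0.12. ITGA2, on chromosome 5 from 52989326 to 53094779 on the plus strand, had neighbours with a median of -0.06, and all 50 were below its 2.27. ITGAV (chromosome 2, 186590065 to 186680901, plus strand) had neighbours with a median of 0.15 beside its own 0.31. Medians around ITGAE on chromosome 17, ITGB1 on chromosome 10 and ITGA6 on chromosome 2 were 0.09, 0.10 and 0.00.

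**Figure D4:**
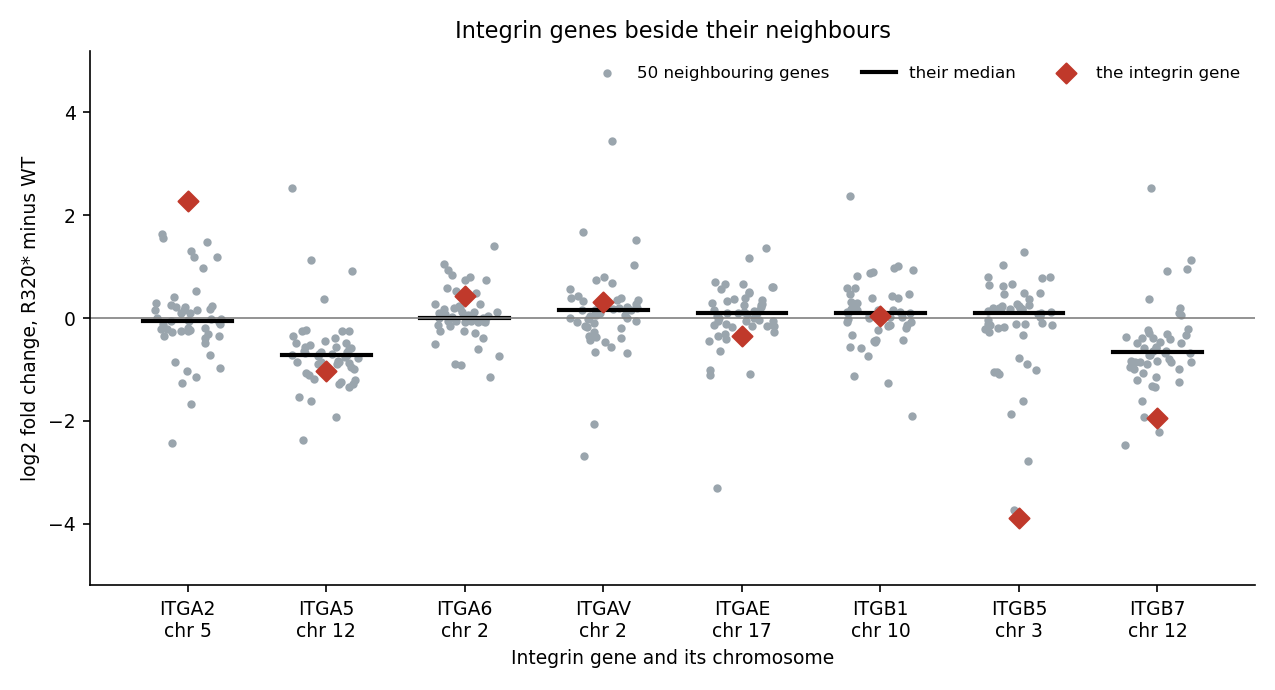
Log2 change, R320* minus WT in normalized counts, of the tested genes around each member (small points), their median (bar) and the member (large point). The neighbours of ITGA5 and ITGB7 centre on -0.71 and -0.66, and those of the other 6 members shown lie between -0.06 and 0.15.

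Among the 16 other integrin chains, 8 were tested in normalized counts, 1 was called higher and 5 lower, where 26.4% of all genes tested were called higher and 27.4% lower. The count of 5 lower fell to 3 without WT replicate 1, without WT replicate 2, without WT replicate 3 and with a filter of 50. ITGA9, another partner of ITGB1, had 243, 227 and 261 normalized counts in R320* libraries and 11.5, 14.0 and 14.2 in WT libraries, and it rose by 4.11 on the log2 scale (limma adjusted p = 3.74e-10). ITGB3, the platelet beta chain that also pairs with ITGAV, had 37.3, 49.6 and 23.8 in R320* and 429, 419 and 379 in WT, a log2 change of -3.49 (limma adjusted p = 1.44e-09). ITGB3 and ITGB5, both partners of ITGAV, were thus both lower. ITGA2B, the platelet alpha chain, changed by -1.66 and the laminin receptor chain ITGA3 by -3.55, with means of 3.88 in R320* and 53.5 in WT for ITGA3. In RPKM the ITGA3 change was smaller, -1.64 (limma adjusted p = 0.0139), with means of 0.569 in R320* and 2.08 in WT. ITGA10 changed by -1.43 in normalized counts. ITGA3 and ITGA10 were below 10 in every R320* library and passed the filter only through WT, so a difference was built into their being tested. ITGB4 changed by -0.98, and the ITGB4 decrease was not seen in RPKM, where the means were 1.87 in R320* and 1.68 in WT. ITGA7 and ITGAD were not called. ITGB8 had 0 normalized counts in all libraries but 1.00 ± 0.225 RPKM in R320* and 1.01 ± 0.0609 RPKM in WT.

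The ligands of these receptors moved in both directions. Of 27 matrix ligands, 19 were tested in normalized counts, 5 (26.3%) were called higher and 10 (52.6%) lower, against 26.4% and 27.4% of all genes tested, with a median log2 change of -0.31. One of the 10, LAMA3, passed the filter only through WT, and another, FBN1, reached 10 in 1 R320* library only. FN1, the fibronectin bound by ITGA5 with ITGB1, averaged 792 ± 39.0 in R320* and 1721 ± 67.0 in WT, a log2 change of -1.12 (limma adjusted p = 2.22e-10). THBS1, a matrix protein of platelets, averaged 9.80 ± 5.26 in R320* and 490.1 ± 42.7 in WT, a log2 change of -5.61, and it reached 10 in 1 R320* library only. The laminin chains LAMC1 and LAMA5 were higher, by 2.91 and 0.56. MFGE8, a ligand of ITGAV with ITGB5 and the matrix ligand of highest RPKM, averaged 3742 ± 190.6 in R320* and 5500.3 ± 64.8 in WT, a log2 change of -0.56 (limma adjusted p = 1.3e-08).

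Of 14 cell surface ligands, 11 were tested, 3 (27.3%) were called higher, 1 (9.09%) was called lower and 7 were not called, against 26.4% higher and 27.4% lower of all genes tested, with a median of 0.00. The count of 1 lower became 2 without WT replicate 3 and 2 with quantile scaling. ICAM4, an erythroid adhesion molecule, changed by -0.49, and the ADAM proteases ADAM9 and ADAM15 changed by 0.35 and 0.16. MADCAM1, a ligand of ITGB7 receptors, averaged 55.3 in R320* and 25.9 in WT with ranges that overlapped, and its call (limma adjusted p = 0.0327) was lost in 5 of 14 alternatives. Among these were leaving out R320* replicate 2 or 3 or WT replicate 2, with adjusted p of 0.0771, 0.172 and 0.164. ICAM5, the list's gene of highest RPKM, was not called at -0.03.

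Of 21 genes whose products bind integrin tails or switch them on and off, 18 were tested, 3 (16.7%) were called higher and 9 (50%) lower, against 26.4% and 27.4% of all genes tested, with a median of -0.21. One of the 9, DOK2, passed the filter only through WT. FERMT3, the kindlin of blood cells, had 1664, 1721 and 1784 normalized counts in R320* libraries and 7260.3, 7128 and 7359 in WT libraries, a log2 change of -2.07 (limma adjusted p = 1.36e-15). RAP1B, a small GTPase that activates integrins through talin, averaged 2433 in R320* and 5960.4 in WT, a log2 change of -1.29. TLN1, a talin, changed by -0.48. The kindlin FERMT2 averaged 7.73 in R320* and 155 in WT in normalized counts, a log2 change of -4.30, reaching 10 in 1 R320* library only, but 1.21 in R320* and 2.38 in WT in RPKM.

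Of 28 signalling and adaptor genes of adhesion sites, 25 were tested, 7 (28%) were called higher, 8 (32%) lower and 10 not called, shares near the 26.4% and 27.4% of all genes tested, with a median of 0.02. One of the 7, NEDD9, passed the filter only through R320*. VCL, the vinculin that links talin to actin, averaged 3376 in R320* and 9001 in WT, a log2 change of -1.41 (limma adjusted p = 6.14e-13). The actin cross-linker ACTN4 changed by -0.58, the adaptor CRKL by 0.38 and the paxillin-binding GIT2 by -0.77. The count of 7 higher fell to 4 without R320* replicate 2, to 3 without R320* replicate 3 and to 4 without WT replicate 1. Of 21 membrane partners and traffic genes, 18 were tested, 6 (33.3%) were called higher, 6 (33.3%) lower and 6 not called, against 26.4% and 27.4% of all genes tested, with a median of 0.08. CD47, which associates with integrins at the membrane, averaged 929.5 in R320* and 2347 in WT, a log2 change of -1.34, and DAB2, an endocytic adaptor of integrins, changed by -1.56. BSG, the list's gene of highest RPKM, rose by 0.49, and RAB11A, a GTPase of receptor recycling, fell by 0.42.

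**Figure D5:**
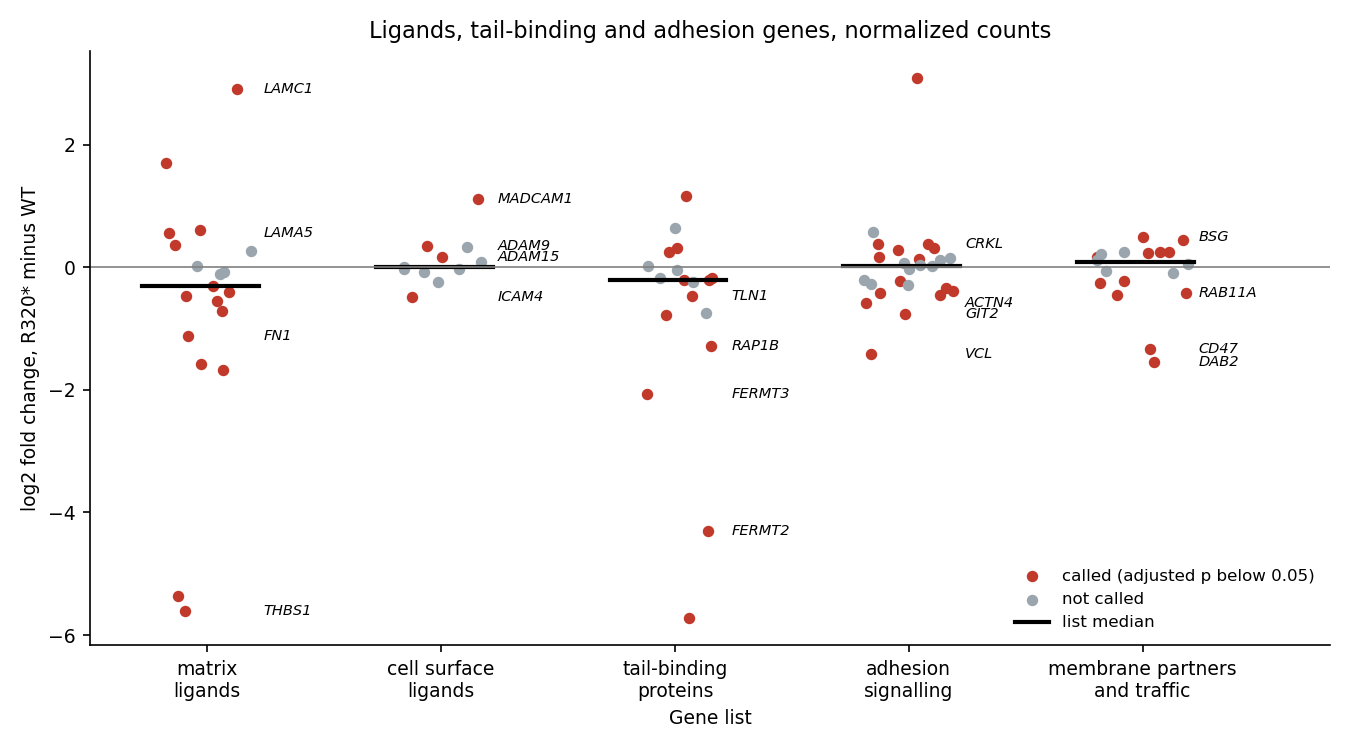
Log2 change, R320* minus WT in normalized counts, of each tested gene in the 5 lists of ligands, activators, adaptors and partners, with the median of each list. FERMT3 at -2.07, VCL at -1.41, CD47 at -1.34 and THBS1 at -5.61 are among the labelled genes.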

How the data were processed

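RNA was measured by sequencing in 3 R320* and 3 WT libraries of K562 cells, made from total RNA with a NEBNext Ultra II kit, per the labels' protocols. HISAT2, featureCounts, DESeq2, Salmon and the hg38 build are named in the submitters' processing notes, without versions or the tool behind each table. One deposited table holds signal values, read counts that the authors had scaled with a factor for each library. The sum of a library in units of its smallest value lay between 29058471 and 31306435. The other deposited table holds RPKM values, so named by the authors, which summed to 721735 to 786389 per library. Depth cannot be read from it, and a gene listed at 0 there may not have been estimated.

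Members were matched by gene name in the RPKM table and by Entrez identifier in the count table. Normalized counts were used as log2(value + 1), for genes reaching 10 in 3 or more libraries, and RPKM as log2(value + 0.1), for genes reaching 0.5 in 3 or more libraries. Both were fitted by limma 3.58.1 (R 4.3.3), moderated by empirical Bayes with a trend on intensity. These scales understate the change of low genes. P-values were Benjamini-Hochberg adjusted over all genes tested and called below 0.05, and the fit was tested on simulated data. Figures and sums were made with Python 3.11.15, pandas 2.3.3, NumPy 2.4.6 and matplotlib 3.10.9. Fold changes without a log are ratios of mean normalized counts. Gene positions came from GENCODE and promoter sequences from RefSeq (GRCh38.p14).

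The members and lists were chosen with earlier results of these data known. The genes named were the 10 members, the other integrin chains, and from each list the 4 smallest adjusted p and the gene of highest mean RPKM. Other scalings, filters, pseudocounts, a replicate block and leaving out each library were tried. Protein features of the chains were not analysed here.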

Additional observations from a re-analysis of the deposited data

How the results depend on the processing

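No member changed sign in any alternative run. Calls of ITGA5, ITGAV, ITGB5 and, in normalized counts, ITGB7 were the same under all of them. The number of members called higher in normalized counts went to 1 with a filter of 50 and was 1 to 2 when libraries were left out, because ITGA2 then failed the filter. In RPKM it was 2 with a filter of 0.1 and 2 with no filter, where ITGB2, listed at 0 in WT, was also called (limma adjusted p = 0.0439 and 0.0166). ITGA2 was tested with no filter only and was not called (limma adjusted p = 0.127). ITGAE in normalized counts also lost its call with no filter, no intensity trend, quantile scaling and upper quartile scaling (limma adjusted p = 0.0655, 0.0733, 0.149 and 0.0578). ITGB7 in RPKM was called with a pseudocount of 1 (limma adjusted p = 0.0473).

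Same-numbered libraries had correlations of deviations of 0.025, -0.0067 and -0.0069, so no pairing by number was seen. These correlations cannot show whether same-numbered libraries were handled together. With the replicate number as a block, 2 members were called higher and 4 lower in normalized counts, with 7854 genes called. In RPKM the block gave 1 higher and 3 lower, with 4865 genes called, and ITGAE was then called (limma adjusted p = 0.027).

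With 10 neighbours on each side the medians were -0.17 (ITGA2), 0.16 (ITGA4), -0.76 (ITGA5), -0.029 (ITGAE), 0.025 (ITGB1), 0.36 (ITGB2), 0.16 (ITGB5) and -0.57 (ITGB7). With 50 they were 0.00040 (ITGA2), -0.68 (ITGA5), 0.034 (ITGAV), 0.23 (ITGB2) and 0.058 (ITGB5). Differences that were not called reversed in some settings. ITGAD in normalized counts was -0.025 with a pseudocount of 5 and -0.73 to 0.24 with libraries left out, and ICAM5 -0.065 to 0.019. In RPKM, with libraries left out, ICAM5 ranged from -0.11 to 0.051, ITGA7 from -0.43 to 0.10, ITGB4 from -0.25 to 0.51 and ITGB8 from -0.19 to 0.069. Equal totals gave 0.035 for ICAM5 and 0.046 for ITGB8. The cause was not tested. The log2 ratio of ITGB1 to its partners ranged from 0.62 to 0.68. The FERMT2 call in RPKM was lost in 6 of 12 alternatives.

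The planned edgeR and DESeq2 alternatives on recovered reads were not run. Low counts limit ITGA2 and ITGA6, whose values were 70.6 or below in every library.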

Other observations

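Some genes of the same lists stood far apart between genotypes without being taken by the rule for named genes. They were chosen after their values were seen, so only values are given. NEDD9, an adaptor of focal adhesions, had 35.3, 46.6 and 38.1 normalized counts in R320* libraries and 6.28, 1.99 and 4.04 in WT libraries. COL6A1, a chain of collagen VI, had 191, 202 and 201 in R320* and 68.0, 69.8 and 46.5 in WT. Both were higher in every R320* library than in any WT library. LAMA3, a laminin chain, had 0 in every R320* library and 31.4, 44.9 and 46.5 in WT libraries. DOK2, an adaptor of blood cells, had 0, 0 and 1.91 in R320* and 64.9, 72.8 and 88.0 in WT.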
